A study of Drosophila melanogaster with 12 samples.

Results

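The transcripts of fly heads at 18 °C were set against those at 25 °C within a single day of a temperature cycle in darkness. The members are 6 of the 12 arrays of the series: CA2, CA6 and CA10, taken during the 18 °C cryophase, and CA14, CA18 and CA22, taken during the 25 °C thermophase, where the number is the hour after the onset of cryophase (CA stands for cold/ambient). They were chosen by the hour and temperature in their labels. All flies were *y w*, a body and eye colour stock with a working clock, raised in constant darkness at 25 °C and then held in the thermocycle for several days, so both groups share darkness and the earlier thermocycle and differ in temperature and in hour. Each array holds RNA of 1 pool of heads sieved from broken frozen flies, and the labels give neither age nor sex. The other 6 arrays, AA2 to AA22, cover the next day at constant 25 °C (ambient/ambient) at the same hours. They served to compare, and also entered the filter, the gene means and the estimate of the spread behind the standard errors.

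Flies do not regulate their body temperature, so a thermocycle acts on every cell of the head as well as on the clock, which temperature cycles set much as light does. Cells adjust their chaperones, the proteins that fold other proteins, to temperature through heat-shock factor, and cold is known to alter fat stores and membrane lipids in insects. The head holds eyes, brain, glia, a layer of fat body, cuticle and some muscle, whereas the midgut, the flight muscle, the testis and the male accessory gland lie in thorax and abdomen.

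Levels are log2 values, on which a difference of 1 is a doubling, and array medians lay between 5.56 and 5.60 on the 12 arrays. Of 14010 probe sets, 11145 passed the filter on low values, and 8908 genes were measured by at least 1 of these that names no other gene. A gene is said to lie apart when its 3 values at 18 °C are all above, or all below, its 3 values at 25 °C. Each time point has 1 array, so the spread behind every standard error and p is that between hours of the day at one temperature. For the standard errors and adjusted p it was pooled over both days, in 4 groups of 3 arrays. Hour and temperature cannot be told apart.

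Arrays differed most in transcripts of gut and male glands, and in some of muscle. A body-tissue index, the mean deviation of 101 such genes (46 gut enzymes, 32 genes of male gland and testis, 23 muscle genes) from their mean over 12 arrays, was 0.040 on CA2, -0.098 on CA6 and -1.20 on CA10 at 18 °C. At 25 °C it was 0.660 on CA14, 0.974 on CA18 and -0.154 on CA22. The groups overlapped, since CA22 lay below CA2 and CA6. The means were -0.418 ± 0.677 at 18 °C and 0.493 ± 0.582 at 25 °C (SD, n = 3 each), a difference of -0.911 with p = 0.3 in a two-sided exact permutation test, whose smallest possible p is 0.1. By tissue the difference was -0.867 for gut enzymes, -1.26 for male gland and testis and -0.512 for muscle, again with exact p = 0.3 each. The median over the muscle genes was -0.21, smaller in size than the 0.346 of photoreceptor genes. On the 6 arrays at constant 25 °C the index spanned 0.80, against 2.17 in the thermocycle day.

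**Figure D1:**
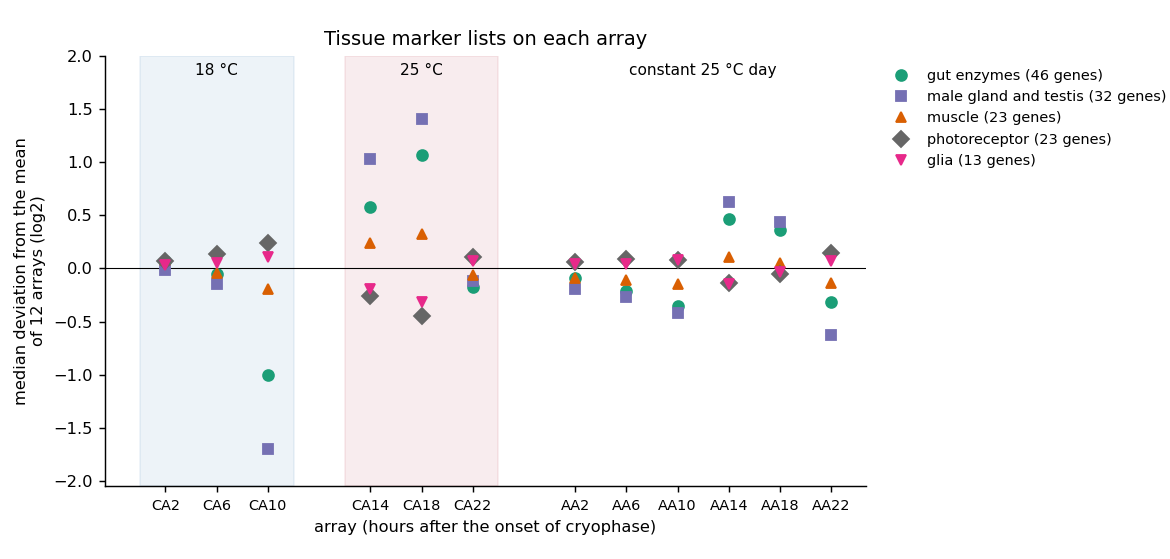
Median deviation of 5 tissue marker lists from the mean of 12 arrays (log2, vertical axis) on each array (horizontal axis, shaded by temperature in the thermocycle day). The gut list stands at -1.0 on CA10 and 1.07 on CA18, and CA22 lies beside CA2 and CA6 for all 5 lists.

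Most of these markers lay above the low end of the arrays. Summed on the linear scale, gut enzymes gave 9570 to 51600 units at 18 °C and 37500 to 106000 units at 25 °C, and even on CA10 45 of the 46 lay above the array's 20th percentile. Male markers summed to 3120 to 10600 units at 18 °C and 9620 to 27200 units at 25 °C, with 25 of 32 above that percentile on CA10. Muscle markers summed to 8850 to 11100 units at 18 °C and 10300 to 15100 units at 25 °C, with 21 of 23 above the percentile on CA10. Photoreceptor transcripts ran the other way without overlap, with 20800 to 22800 units at 18 °C and 13000 to 20600 units at 25 °C. Glial markers gave 3450 to 3620 units at 18 °C and 2730 to 3790 units at 25 °C, and fat body markers 62100 to 63800 units at 18 °C and 55400 to 63600 units at 25 °C, with overlap in both. In a pool of heads, fewer cells of a type and less RNA per cell cannot be told apart.

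No probe set passed an adjusted p of 0.05 in limma (0 of 11145, or 0%), so no gene is said to have changed. At an unadjusted p under 0.05 there were 2390, and at an adjusted p under 0.2 there were 1768, 996 of them higher at 18 °C and 772 lower. The 1768 became 0 when only the 6 thermocycle arrays were fitted. They became 0 without CA6 or CA14, 11 without CA10 and 1 without CA18, but 2653 without CA2 and 4476 without CA22. Probe sets that lay apart numbered 1404 above (12.6%) and 566 below (5.08%). Counted by gene, 1088 lay above (12.2%) and 493 below (5.53%), and 5634 of 8908 genes (63.2%) had a difference above 0, with a median of 0.046. Most of the separations were narrow. The median difference was 0.18 for those above and 0.24 in size for those below, and the gap between the nearest values of the groups was under 0.1 for 85.1% of those above and 81.4% of those below. The count at an adjusted p of 0.05 turned on single arrays, being 1978 without CA22 and 34 without CA2.

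The lowest genes at 18 °C had gut, male or muscle patterns. *Sgp* had the largest difference among genes that lay apart, with 6.96, 7.08 and 4.79 on CA2, CA6 and CA10 at 18 °C, against 9.04, 9.08 and 7.11 on CA14, CA18 and CA22 at 25 °C. The difference was -2.14 (SE 0.70, adjusted p = 0.169 from limma, 4.40-fold lower). Its lowest value at 25 °C, on CA22, lay only 0.03 above its highest at 18 °C. *Mal-A1*, a maltase that splits sugars in the gut, had 7.62, 7.51 and 6.56 at 18 °C, against 8.99, 10.10 and 8.04 at 25 °C, a difference of -1.81 (SE 0.52). Its relative *Mal-A6* differed by -1.82, and the lysosomal mannosidases *LManV* and *LManVI* by -1.51 and -1.40. CA10 was the lowest and CA18 the highest of the 6 arrays for each of these 5 genes. With the index in the fit these genes differed by -0.35 to -0.68, and only the groups of *LManVI* stayed apart.

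The sperm, seminal and flight-muscle genes named here were also lowest on CA10 and highest on CA14 or CA18. *Mst87F*, which encodes a small sperm protein, had 8.23, 8.04 and 6.55 at 18 °C, against 9.44, 9.68 and 8.24 at 25 °C, with CA22 level with CA2. The testis gene *ocn* differed by -1.47 and lay apart by 0.08. With the index in the fit *Mst87F* kept -0.23 and its groups stayed apart, while *ocn* kept -0.20 and its groups overlapped. *Acp63F*, a seminal fluid protein, had 7.22, 7.31 and 5.47 at 18 °C, against 8.74, 8.97 and 7.19 at 25 °C, and so overlapped. *fln*, which encodes the flight-muscle protein flightin, had 6.81, 6.47 and 3.50 at 18 °C, against 8.21, 8.17 and 6.61 at 25 °C. The troponin gene *TpnC4* had the largest difference of the muscle list at -2.36 (SE 0.88), also with overlapping groups, and 2.23 on CA10. On that array *TpnC4*, *fln* and *Mal-A6* (3.94) lay below the 20th percentile of 4.19. Of the 46 gut enzymes 41 had a lower mean at 18 °C but only 5 lay apart below and 3 above. Of 32 male genes 31 were lower, 2 lay apart below and 1 above, and of 23 muscle genes 20 were lower and 1 lay apart. Several of these families hold near-identical members whose probes may share transcripts.

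*MtnC*, which encodes a metal-binding metallothionein, stood among the lowest genes with 6.94, 6.59 and 4.87 at 18 °C, against 8.17, 8.74 and 7.01 at 25 °C, a difference of -1.84. Like the gut list it was lowest on CA10 and highest on CA18, but -0.44 (SE 0.11) was left with the index in the fit, and its groups stayed apart. The other genes among the 15 lowest, *CG8997*, *CG17560*, *CG7953*, *CG9259*, *CG5107* and *CG15109*, differed by -1.40 to -1.77, and each had slopes above 1 on the index in the constant 25 °C day. A second probe set of *CG7953* differed by only -0.39, with a slope of 0.15. On CA10 *CG8997* (4.09) and *CG5107* (3.99) lay below the 20th percentile of 4.19. In *CG17560* the groups stood furthest apart of the 6 genes, by 0.46. With the index in the fit the 6 genes differed by -0.24 to -0.84, the largest in *CG17560*, and the groups of each overlapped.

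One of the 15 lowest genes did not share this order. *dhd*, a thioredoxin of ovary and egg, had 3.70, 4.34 and 4.26 at 18 °C, against 5.49, 6.60 and 5.61 at 25 °C, with a gap of 1.15. On CA2 it lay below that array's 20th percentile of 4.15, and on CA6 and CA10 just above theirs, 4.16 and 4.19. The size of its difference is therefore uncertain. Its difference was -1.80 (SE 0.60, adjusted p = 0.170) and -2.0 with the index in the fit. The same hours at constant 25 °C differed by -1.80 as well, with values from 3.75 to 7.41. Egg-shell genes as a list did not lie apart in the thermocycle day, with 1 of 16 above and 0 below and a median of 0.040. The chorion gene *Cp15* owed its difference of -1.13 to 1 array, with 10.02 on CA18 and 6.29 to 6.57 on the other 5.

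The relation to the body-tissue index was read from the constant 25 °C day, whose 6 arrays share no sample with the temperature difference. The index was -0.12 on AA2, -0.20 on AA6, -0.31 on AA10, 0.44 on AA14, 0.32 on AA18 and -0.36 on AA22. Hours 14 and 18 were thus the highest on both days, so following the index and a rhythm of the hour cannot be told apart by these slopes. For each probe set the slope of its level on the index over those 6 arrays was set beside its difference between 18 and 25 °C. Probe sets with a slope above 0.5 (661) had a median difference of -0.68, and 18.3% of them lay apart below and 0% above. Those with a slope from 0.2 to 0.5 (702) had a median of -0.17. Those within 0.2 of 0 (7566) had a median of 0.05, and 13.2% lay apart above and 3.82% below. At slopes from -0.5 to -0.2 (2084) the median was 0.13, and at or below -0.5 (132) it was 0.32, with 28.8% apart above.

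Across the 11145 probe sets, which are not independent, Pearson's r between slope and difference was -0.85 and Spearman's rho -0.57. Without the index's own genes they were -0.83 and -0.56, and over the 7547 other probe sets with slopes within 0.2 of 0 they were -0.32 and -0.31. Of the probe sets that lay apart above, 82.0% had a negative slope, and of those apart below 73.7% had a positive one, against 63.5% negative and 36.5% positive over all probe sets. The first principal component of the 6 thermocycle arrays held 79.4% of their variance. Its scores were -2.41 on CA2, -7.65 on CA6 and -32.3 on CA10 at 18 °C, against 18.3 on CA14, 29.5 on CA18 and -5.48 on CA22 at 25 °C, so CA22 lay between 2 arrays of 18 °C.

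**Figure D2:**
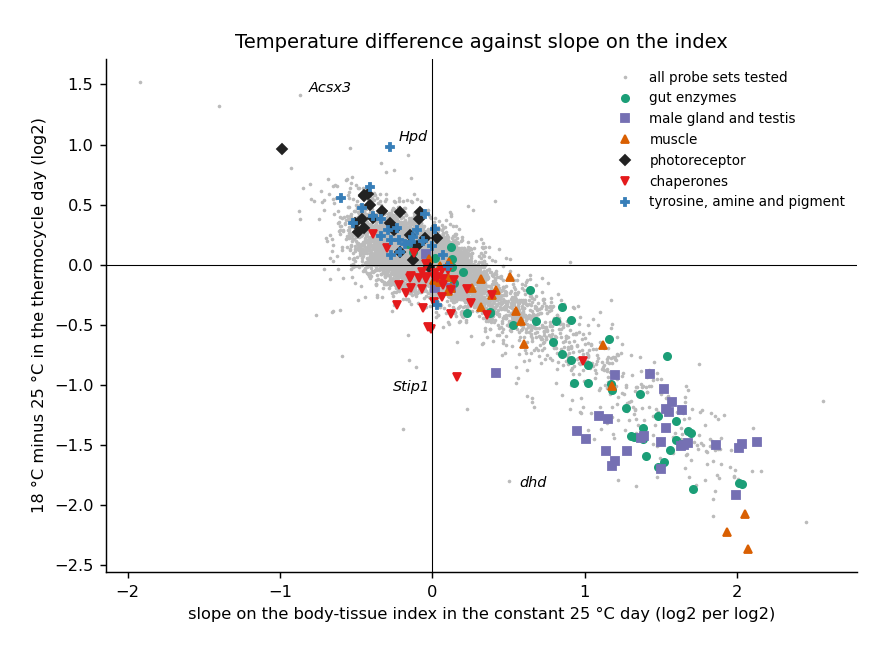
Difference between 18 and 25 °C in the thermocycle day (log2, vertical axis) against the slope on the body-tissue index over the 6 arrays at constant 25 °C (horizontal axis), for 11145 probe sets with 6 gene lists in colour. Most gut and male genes lie at the lower right and photoreceptor genes at the upper left, and *Acsx3*, *Hpd*, *Stip1* and *dhd* stand off the main band. The muscle list had a median slope of 0.32 and a median difference of -0.21.

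With the index as a covariate, the differences shrank and lost their lean to one side. Their SD over probe sets was 0.116, against 0.274 without it, and genes that lay apart once the index was taken out numbered 762 above (8.55%) and 753 below (8.45%). Of the probe sets first apart above, 53.4% still were, with a median difference of 0.115, and of those first apart below, 50.5% still were, with a median of 0.143 in size. At an unadjusted p under 0.05 there were 488, and 2 of 11145 (0.0179%) passed an adjusted p of 0.05, both lower at 18 °C: *DnaJ-1* and a probe set with no gene name in the annotation. The index was itself lower on average at 18 °C, so a response to temperature that ran along the index would be removed by this fit too. A second reading left out CA10, CA14 and CA18 and set CA2 and CA6, at 18 °C, against CA22, at 25 °C, arrays whose index lay between -0.154 and 0.040. Of all genes 4350 were higher and 4558 lower at 18 °C in this reading, against 4453 and 4455 with the index in the fit. The part of body tissue in each difference was not tested beyond these values.

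Chaperones were lower at 18 °C on average, with the index in the fit and without it. Of 37 heat-shock proteins and cochaperones, 33 had a lower mean at 18 °C and 14 lay apart below, 0 above, with a median difference of -0.168. With the index 31 were lower, 14 lay apart below and the median was -0.116, and CA2 and CA6 against CA22 gave -0.129 with 30 of 37 lower. The list's median slope on the index was 0.01.

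*Stip1*, the cochaperone that hands proteins from Hsp70 to Hsp90, had 6.66, 6.08 and 6.21 on CA2, CA6 and CA10 at 18 °C, against 7.23, 7.38 and 7.12 on CA14, CA18 and CA22 at 25 °C. The groups were 0.46 apart, and the difference was -0.93 (SE 0.13, adjusted p = 0.0509 from limma, 1.90-fold lower), or -0.80 with the index. CA22, with its low index, stood with the other 25 °C arrays here. *DnaJ-1*, an Hsp40 that feeds proteins to Hsp70, had 7.38, 7.67 and 7.86 at 18 °C, against 8.21, 8.10 and 8.18 at 25 °C. Its difference was -0.53 (SE 0.10, adjusted p = 0.148) without the index and -0.70 (SE 0.10, adjusted p = 0.0369 from limma) with it. That call held without CA10 (adjusted p = 0.00646) and was lost without any one of the other 5 arrays (adjusted p from 0.052 to 0.142), while the difference stayed between -0.54 and -0.85. The values at 18 °C were lowest at CA2, soon after the temperature drop, and stayed below those at constant 25 °C, which ran from 8.0 to 8.21. *mora*, a cochaperone of Hsp90, differed by -0.52 (SE 0.12) and by -0.42 with the index.

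The 8 chaperonin subunits of the list, which form the folding chamber of the cytosol and were grouped after their values were seen, all had a lower mean at 18 °C, by -0.07 to -0.31, and 5 of them lay apart below, with no adjusted p under 0.169. *CCT7* had 4.64, 4.40 and 4.44 at 18 °C, against 4.75, 4.82 and 4.71 at 25 °C, a difference of -0.27. Among members chosen after their values were seen, *CCT5* differed by -0.31, the nucleotide exchange factor *Hsp110* by -0.33 and the small heat-shock gene *Hsp26* by -0.36, and each kept its groups apart with the index. *Hsc70-2* had the second largest difference of the list at -0.80 but a slope of 0.99 on the index, and only -0.13 was left with it. *Hsf*, the transcription factor that drives heat-shock genes, had 5.89, 6.02 and 6.22 at 18 °C, against 5.68, 5.72 and 5.96 at 25 °C, and the groups overlapped.

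**Figure D3:**
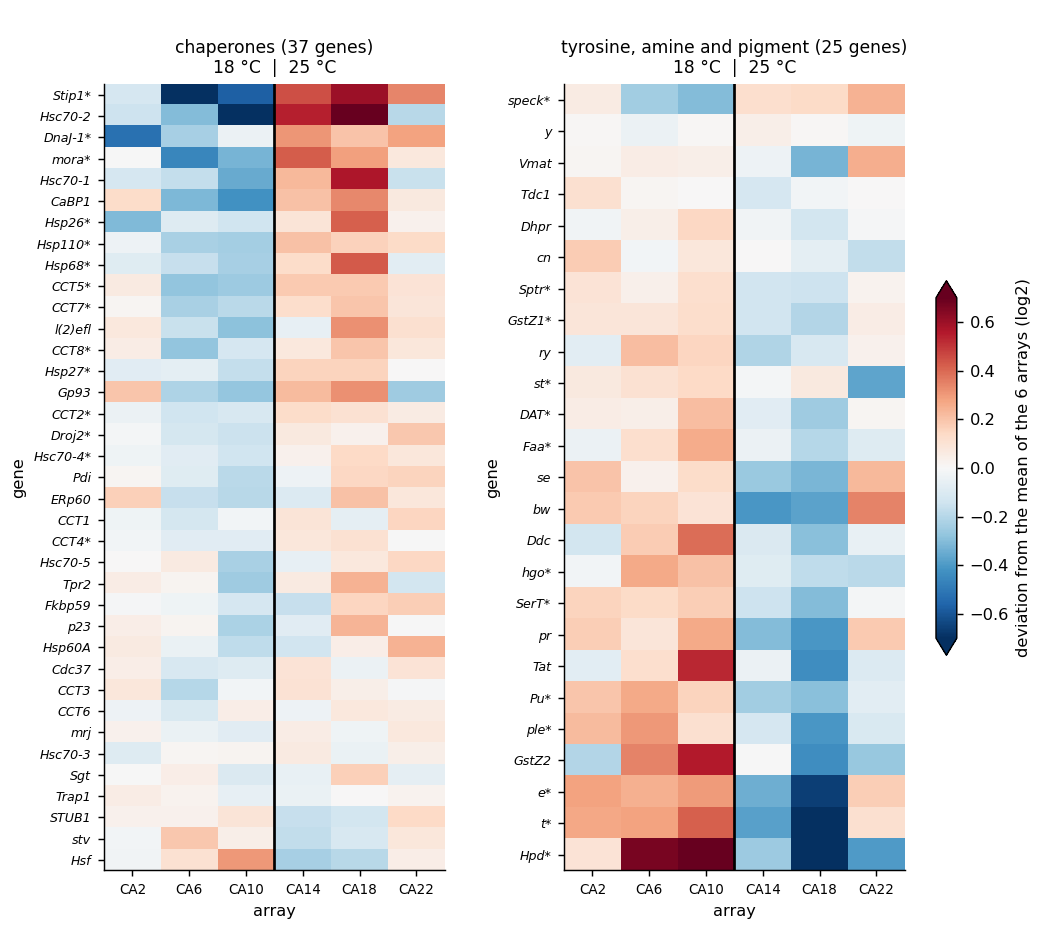
Deviation of each gene from its mean over the 6 thermocycle arrays (colour, log2) for 37 chaperones and 25 genes of tyrosine, amine and pigment metabolism (rows), with the 18 °C arrays left of the line and the 25 °C arrays right of it. Stars mark genes whose groups did not overlap, 14 chaperones that lay below, 12 genes of the second list that lay above and 1 of it, *speck*, that lay below.

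Tyrosine breakdown and amine genes were the counterpart at the higher end. Of 25 genes of tyrosine, amine and pigment metabolism, 23 had a higher mean at 18 °C, 12 lay apart above and 1 below, and the median was 0.241. With the index the median was 0.094, with 22 higher and 9 apart above, and CA2 and CA6 against CA22 gave 0.069 with 20 higher. *Hpd*, which converts hydroxyphenylpyruvate in tyrosine breakdown, had 9.01, 9.58 and 9.62 at 18 °C, against 8.66, 8.10 and 8.52 at 25 °C. Its difference was 0.98 (SE 0.19, adjusted p = 0.148, 1.97-fold higher) and 0.78 with the index, and CA6 and CA10 stood well above CA2.

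*ple*, the tyrosine hydroxylase that starts dopamine synthesis, had 7.44, 7.52 and 7.33 at 18 °C, against 7.10, 6.81 and 7.11 at 25 °C, and its difference was 0.42 (SE 0.08) without the index and 0.42 (SE 0.11) with it. *Pu*, which makes the pterin cofactor of that enzyme, differed by 0.41 and by 0.28 with the index. *t*, which recycles dopamine and histamine from their conjugates, had 8.24, 8.25 and 8.39 at 18 °C, against 7.59, 7.27 and 8.08 at 25 °C, and its 0.65 became 0.32. The pterin gene *pr*, chosen after its values were seen, had 8.69, 8.60 and 8.78 at 18 °C, against 8.21, 8.11 and 8.70 at 25 °C. Its CA22 value lay among those of 18 °C, so this list held both patterns.

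Lipid genes had no common direction, but held the highest single gene. *Acsx3*, an acyl-CoA synthetase that activates fatty acids, had 7.52, 7.76 and 7.10 at 18 °C, against 5.82, 5.71 and 6.62 at 25 °C. The difference was 1.41 (SE 0.24, adjusted p = 0.108, 2.66-fold higher) and 1.22 with the index. *mdy*, a diacylglycerol acyltransferase that makes storage fat, had 7.05, 7.76 and 7.88 at 18 °C, against 6.99, 6.47 and 6.70 at 25 °C, so CA2 nearly touched CA14. The difference was 0.84 (SE 0.20) and 0.58 with the index. *Lsd-1*, the perilipin that coats fat droplets and governs their breakdown, ran the other way with 8.53, 7.94 and 8.03 at 18 °C, against 8.66, 8.96 and 8.87 at 25 °C, a difference of -0.66 (SE 0.14) and of -0.54 with the index. *whd*, the carnitine transferase that admits fatty acids to mitochondria, differed by 0.37. Of 38 lipid genes 24 were higher and 14 lower, 8 lay apart above and 3 below, and the median was 0.039, close to that of all genes.

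**Figure D4:**
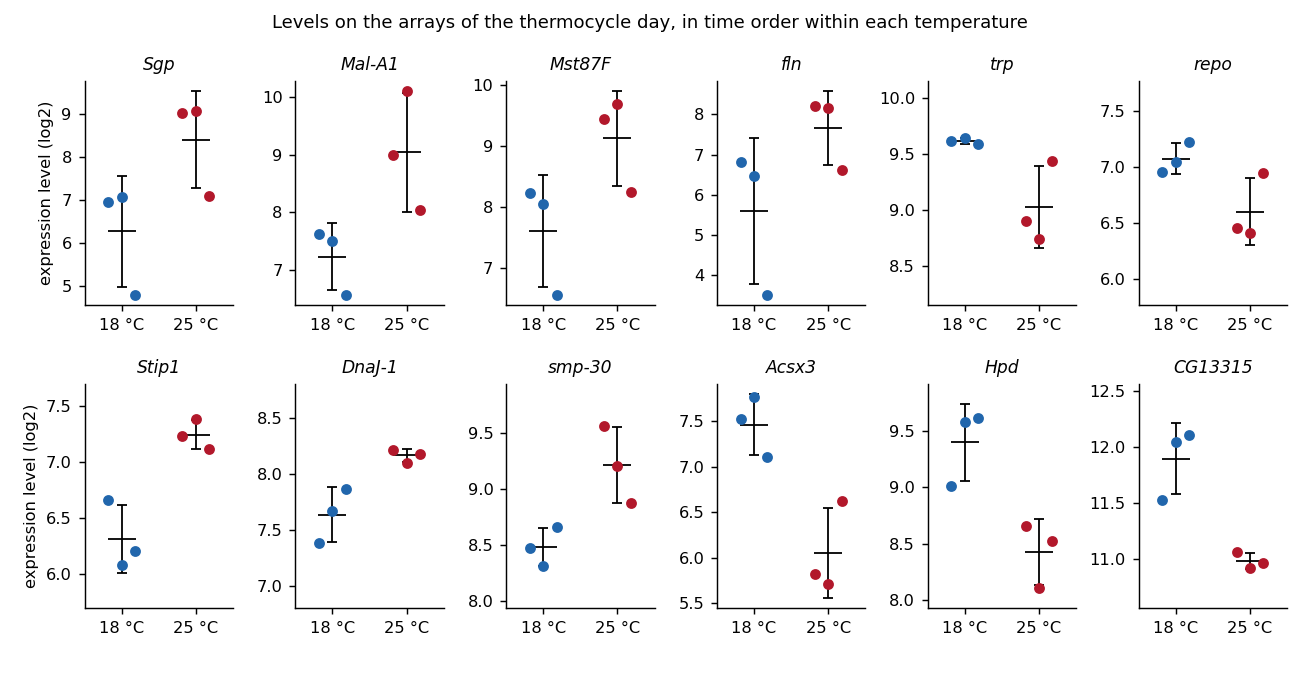
Levels (log2, vertical axes) of 12 genes on the 3 arrays at 18 °C and the 3 at 25 °C, in time order, with the mean and SD as black bars. In the upper row the last 25 °C array, CA22, lies close to the 18 °C values, as for *Mst87F* (8.24 on CA22 and 8.23 on CA2), and in *Stip1*, *DnaJ-1* and *CG13315* of the lower row it lies with the other 25 °C arrays.

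Other genes lower at 18 °C were named for their difference with the index or for a small p, so the values with the index are given as a description. *smp-30*, a regucalcin-like gene also known as *Dca* for its link to cold acclimation, had 8.48, 8.32 and 8.66 at 18 °C, against 9.56, 9.21 and 8.88 at 25 °C. The difference was -0.73 (SE 0.14, adjusted p = 0.150) and -0.65 with the index. The transketolase gene *CG8036* had 10.24, 10.08 and 10.18 at 18 °C, against 10.75, 10.62 and 10.51 at 25 °C, a difference of -0.46 (SE 0.07, adjusted p = 0.0639). *CG9119* differed by -0.59 (adjusted p = 0.0785) and *CG3699* by -0.63 (adjusted p = 0.148), and both kept over 0.4 in size with the index. The mitochondrial cytochrome P450 *Cyp12d1-d* differed by -0.64, *Cyp6w1* by -0.39 and *CG15155* by -1.29, the last with -0.74 left. *CG15155* read 4.21, 3.93 and 3.88 at 18 °C, below the 20th percentile on CA6 (4.16) and CA10 (4.19). The size of its difference is therefore uncertain.

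The antibacterial peptide gene *DptB* had 7.92, 7.87 and 7.72 at 18 °C, against 8.27, 8.44 and 9.17 at 25 °C. CA22 was its highest array, and the difference was -0.79, or -0.96 with the index. The immune list as a whole had 2 genes apart above and 1 below of 14, with a median of -0.034. The rule of no overlap also held for probe sets with no gene name in the annotation. The one called with the index had 5.98, 6.09 and 6.21 at 18 °C, against 6.91, 6.72 and 7.21 at 25 °C, a difference of -0.85 (adjusted p = 0.0509) and of -1.05 with the index (adjusted p = 0.000711). With the index it passed without each of the 6 arrays in turn, at adjusted p from 0.000258 to 0.0355. Another had 9.27, 9.14 and 9.61 at 18 °C, against 10.75, 10.45 and 10.41 at 25 °C, and differed by -1.20. A further one differed by -0.76 and had its highest value, 7.33, on CA22.

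Among higher genes, several whose function is unsettled had the smallest p. *CG13315* had 11.53, 12.04 and 12.11 at 18 °C, against 11.06, 10.92 and 10.97 at 25 °C, a difference of 0.91 (SE 0.13, adjusted p = 0.0509) and of 0.74 with the index. At constant 25 °C it kept to 10.93 to 11.17, so its 3 cold values exceeded the 9 warm ones of both days. *CG10621* had 6.42, 6.72 and 6.48 at 18 °C, against 5.38, 5.56 and 5.77 at 25 °C, with the widest gap above, 0.66, and a difference of 0.97 (adjusted p = 0.0639). *CG15096* differed by 0.58 and *CG34376* by 0.59 (adjusted p = 0.0509 each). *Nagk*, the kinase of N-acetylglucosamine, a building block of chitin, differed by 0.54 (adjusted p = 0.0714). *rost*, a membrane protein of myoblast fusion, had 7.81, 8.36 and 8.03 at 18 °C, against 7.36, 7.30 and 7.21 at 25 °C, and its difference of 0.78 became 0.77 with the index.

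*CG17124* differed by 0.78 and *CG17108* by 0.72, with 0.70 and 0.53 left with the index. The flavin monooxygenase *Fmo-2* differed by 0.71 and the sugar-conjugating enzyme *Ugt35B1* by 0.71, with 0.72 and 0.56 left. A second probe set of *Ugt35B1* differed by 0.33, with 0.15 left. *CG10433* differed by 0.73 and *CG1441* by 0.80. In *CG1441* CA22 read 7.09 and CA2 7.13, and 0.37 was left with the index. The cuticle gene *Cpr72Ec* had 10.56, 10.88 and 11.04 at 18 °C, against 9.69, 8.82 and 9.99 at 25 °C, a difference of 1.32 (SE 0.31) of which 0.72 was left. Its slope on the index at constant 25 °C was -1.40. The chitin-binding gene *Gasp* differed by 0.67, with 0.43 left. Between the same hours at constant 25 °C, *Fmo-2* differed by 0.51, *Ugt35B1* by 0.59, *CG1441* by 0.44, *Cpr72Ec* by 0.72 and *Gasp* by 0.39. The values there were smaller for *CG17124* (0.29), *CG17108* (0.26) and *CG10433* (0.18).

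Photoreceptor genes had the highest median of the 26 lists, and it was smaller with the index or without CA10, CA14 and CA18. Of 23 such genes 22 had a higher mean at 18 °C and 6 lay apart above, with a median of 0.346. It was 0.076 with the index and -0.026 for CA2 and CA6 against CA22, with 10 of 23 higher. *trp*, the cation channel of phototransduction, had 9.62, 9.64 and 9.59 at 18 °C, against 8.90, 8.74 and 9.44 at 25 °C, and its 0.59 became 0.32. *Pdh*, a retinol dehydrogenase of pigment cells, had 11.37, 11.35 and 11.32 at 18 °C, against 10.53, 9.66 and 10.97 at 25 °C, a difference of 0.96 (SE 0.29) of which 0.50 was left. The eye protein kinase gene *inaC* differed by 0.57 and by 0.23 with the index. *laza*, a lipid phosphatase of photoreceptors, kept 0.27 of 0.38, and *pinta*, a retinoid carrier, 0.28 of 0.44, both still apart.

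Glia and neurons resembled the eye in direction and in a smaller median with the index, but glia not in the share that lay apart. Of 13 glial genes 12 were higher, against 63.2% of all genes, and the median was 0.202, or 0.009 with the index. Only 1 lay apart above (7.69%), against 26.1% of photoreceptor genes and 12.2% of all genes. *repo*, the transcription factor that marks glia, had 6.95, 7.04 and 7.22 at 18 °C, against 6.45, 6.41 and 6.94 at 25 °C. The astrocyte gene *alrm* differed by 0.41, with 0.09 left. Of 17 neuronal genes 16 were higher, 4 lay apart above (23.5%), and the median was 0.119, or 0.044 with the index. The potassium channel gene *sei* differed by 0.37, with 0.13 left. The fat body list, 8 genes of yolk, storage and lipid carrier proteins, had 0 apart on either side and a median of 0.041. Its yolk gene *Yp1* differed by 0.09 and *fit*, a fat body signal of feeding, by -0.39, with the highest value, 9.22, on CA22.

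Proteasome subunits, which break down proteins, all had a lower mean at 18 °C (30 of 30), and 14 lay apart below and 0 above. The median of -0.159 became -0.062 with the index, with 26 lower and 6 apart, and -0.030 for CA2 and CA6 against CA22. *Prosbeta6* had 9.13, 9.03 and 8.90 at 18 °C, against 9.32, 9.54 and 9.25 at 25 °C, a difference of -0.35 (SE 0.09). A second probe set of *Prosbeta6* did not share this, with -0.05, and 0.02 with the index. *Prosalpha3* differed by -0.24 and *Rpn2*, of the regulatory cap, by -0.18. The cap subunit kept its size with the index, at -0.19, while *Prosalpha3* had -0.17 left.

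The median of respiratory genes changed sign with the index. Of 65 genes of oxidative phosphorylation 59 were lower at 18 °C, 7 lay apart below and 1 above, with a median of -0.093. With the index 45 were higher, 14 lay apart above and 2 below, with a median of 0.022. The lowest was the variant subunit *COX4L* at -1.40, with a slope of 1.67 on the index, and the variant *UQCR-14L* differed by -0.55, with a slope of 0.52. *COX4L* read 3.37 on CA10, below that array's 20th percentile of 4.19, and its values on CA2, CA6 and CA22 were level (4.66, 4.64 and 4.65). *COX7A* was the 1 gene apart above, at 0.23. Cytosolic ribosomal proteins did so the other way, with a median of 0.018 and 2 of 30 apart above, against -0.077 and 10 of 30 apart below with the index.

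**Figure D5:**
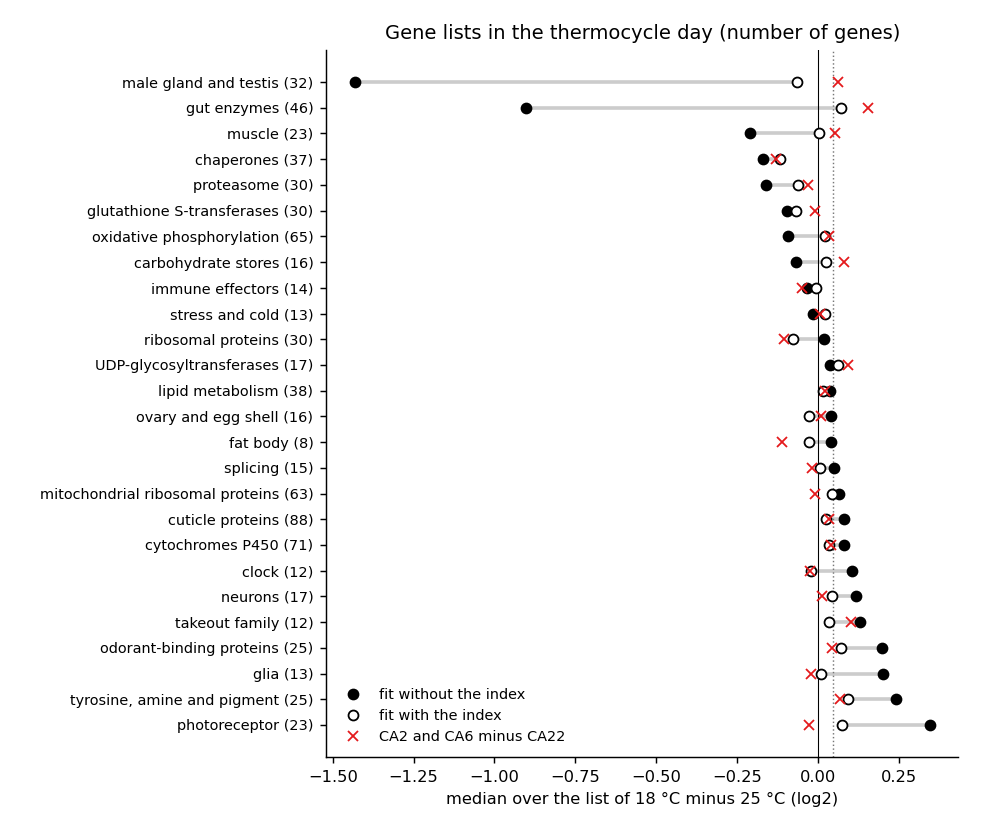
Median difference between 18 and 25 °C (log2, horizontal axis) over each of 26 gene lists (rows, number of genes in brackets) in the fit without the index (filled), in the fit with it (open) and for CA2 and CA6 against CA22 (crosses), with the median of all genes at 0.046 as a dotted line. The gut and male lists move from -0.902 and -1.43 to near 0, as the index is built from them, and chaperones stay between -0.168 and -0.116.

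Of 12 clock genes, 2 lay apart above and 0 below, with a median of 0.107. *tim*, the partner of period in the clock loop, chosen after its values were seen, had the largest difference, with 8.27, 7.39 and 7.18 at 18 °C, against 7.64, 8.0 and 8.41 at 25 °C. Its -0.40 (adjusted p = 0.348 from limma) was -0.32 with the index, and the groups overlapped. *Clk*, the activator of the clock loop, had 6.56, 6.72 and 6.61 at 18 °C, against 6.20, 6.14 and 6.52 at 25 °C, and the clock neuropeptide gene *Pdf* differed by 0.28. The *Clk* difference was 0.35, or 0.14 with the index, where its groups overlapped, and 0.20 between the same hours at constant 25 °C. For *Pdf* 0.12 was left with the index, and the same hours at constant 25 °C differed by 0.09. Of 15 splicing genes 3 lay apart above and 1 below, with a median of 0.049. *SC35*, an SR protein that guides splice site choice, had 7.40, 7.50 and 7.40 at 18 °C, against 7.16, 7.03 and 7.22 at 25 °C, a difference of 0.29 (SE 0.06) of which 0.25 was left with the index. Its relatives *SF2* and *B52* differed by 0.27 and 0.22.

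Genes of carbohydrate stores had 2 of 16 apart above and 0 below, and a median of -0.066. *Tps1*, which makes the blood sugar trehalose, had 11.04, 11.10 and 11.04 at 18 °C, against 10.91, 10.88 and 10.90 at 25 °C, a difference of 0.16 that was the same with the index. The trehalose transporter gene *Tret1-1* differed by 0.40, mostly through CA6 at 8.89, and the trehalase gene *Treh* by 0.30. Of 13 stress and cold genes 2 lay apart above and 3 below, with a median of -0.016. Besides *MtnC* and *smp-30* these were *MtnA*, another metallothionein, at -0.40, and above them the transcription factor gene *sr* at 0.28 and *crc*, chosen after its values were seen, at 0.29.

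Odorant-binding proteins had 3 of 25 apart above and 0 below with a median of 0.199, the takeout family, secreted proteins related to a clock-controlled feeding gene, 4 of 12 and 0 with 0.132, and cuticle proteins 19 of 88 and 1 with 0.080. Their medians with the index were 0.071, 0.034 and 0.025. Cytochromes P450 had 11 of 71 apart above and 4 below (median 0.082), UDP-glycosyltransferases 3 of 17 and 0 (median 0.039), mitochondrial ribosomal proteins 6 of 63 and 0 (median 0.067) and glutathione S-transferases 1 of 30 and 3 (median -0.096). Of all genes 12.2% lay apart above and 5.53% below. The largest shares among the 26 lists were 48.0% above for tyrosine, amine and pigment genes and 33.3% above for the takeout family (4 of 12, and 1 of 12 with the index), and 46.7% below for the proteasome and 37.8% below for chaperones.

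The same hours at constant 25 °C were compared as well. *Stip1* differed by -0.24 (SE 0.13) between subjective cryophase and subjective thermophase, *DnaJ-1* by -0.11 (SE 0.10), *Acsx3* by 0.48 (SE 0.24), *Hpd* by 0.37 (SE 0.19) and *CG13315* by 0.03 (SE 0.13). The difference between the days was -0.69 for *Stip1*, 0.94 for *Acsx3* and 0.89 for *CG13315*, and no such difference passed the adjusted threshold in limma (adjusted p = 0.933 for each of the 3), so no single gene is said to differ between the days.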

How the data were processed

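RNA of fly heads was hybridised to 12 Affymetrix Drosophila Genome arrays, 1 per time point. The authors prepared the values with RMA (background correction, quantile normalization, median polish), of unstated version, and the deposited values were read as log2 from their range. The 12443 probe sets with 1 gene name in the platform annotation were named, 327 with several and 1196 with none were not, and 44 controls were left out. The study's filter was used, by which 11145 probe sets exceeded the array's 20th percentile on most of the 12 arrays, and 1 probe set per gene (highest mean) stood in lists. limma 3.58.1 in R 4.3.3 was fitted to 4 groups of 3 arrays (8 residual degrees of freedom), with Benjamini-Hochberg adjustment over all probe sets. A second fit added the body-tissue index, and leave-one-out, filter, centring and prior alternatives were tried. The fits were tested on simulated data. The number of arrays limits the precision.

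Members, lists and tests were chosen with earlier results of these data known. Named were the 15 highest and 15 lowest differences with no overlap, 10 and 10 in the fit with the index, the 5 smallest p in each direction and up to 4 members of each of the 26 lists (132 genes). Any other name was picked with its values in view. A planned search of promoters for heat-shock elements could not be run, as no promoter sequences were available. Figures were drawn with matplotlib 3.10.9.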

Additional observations from a re-analysis of the deposited data

How the results depend on the processing

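The count of probe sets at an adjusted p under 0.05 was 0 and remained 0 with only the 6 thermocycle arrays, with probe sets averaged per gene and without CA6, CA10 or CA14. It was 9 with no filter, 8 with a filter on the mean, 10 with a trended robust prior and 5 with a common array median. Leaving out each array in turn gave 0 to 1978, with 34 without CA2, 1 without CA18 and 1978 without CA22, and leaving out CA10 and CA18 gave 1. It was 2 with the body-tissue or gut index as covariate, 1 with the male and 2 with the muscle index, 3 without CA10, CA14 and CA18 (added after seeing the data), and 1768 at an adjusted p under 0.2. At an unadjusted p under 0.05 the 2390 became 1368 with a filter on the mean and 1582 with only the thermocycle arrays. That count was 959 to 3747 when arrays were left out in turn, 526 without CA10 and CA18, 297 without CA14 as well, and 488, 544, 458 and 453 with the body-tissue, gut, male and muscle index.

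Probe sets apart numbered 702 above and 306 below with a filter on the mean, which tests fewer probe sets, and 935, 898, 962 and 889 below with the body-tissue, gut, male and muscle index. With a common array median 1301 lay above and 602 below. In the fit with the index the count of 2 was 1 with the male index and 1 to 7 with arrays left out, the highest without CA10. Without CA10, CA14 and CA18, the differences of *Acp63F* (0.070), *fln* (0.028), *TpnC4* (0.053), *COX4L* (0.002) and *Cp15* (0.182) turned, and *Cp15* also turned without CA18 (0.084, in a range from -1.78 over arrays left out), without CA10 and CA18 (0.094) and with the male index (0.014). The cause was not tested. These alternatives were run for 79 genes that the text names. Of these 79, 69 passed the threshold without CA22, against 1978 of all 11145 probe sets. Without CA2 15 passed, *Stip1*, *Hpd*, *CG13315* and *CG10621* among them, against 34 of 11145. The 79 were named mostly for large differences or small p in these same arrays, so their counts are no independent support. No paired analysis was possible because no label pairs arrays at 18 °C with arrays at 25 °C.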
